A study of Mus musculus with 23 samples.

Results

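Hippocampal RNA of 3xTg-AD/Polb+/- mice given vehicle was compared with that of wild-type mice given vehicle, over every gene with a value on an nCounter panel of mostly metabolic and immune genes. The comparison took in 8 of the 23 samples of the study, 4 of each genotype, chosen by the genotype and treatment in the labels. The 3xTg-AD/Polb+/- mice, called heterozygous mice here, carried, among other changes, Tg(APPSwe,tauP301L)1Lfa (a human APP transgene of the Swedish type together with human P301L tau) and 1 copy of the Polbtm1Rsky allele. The wild-type mice carried none of these alleles. Both groups had the labelled background C57BL6/J, were 18 months old and had received vehicle for 5 months. Heterozygous replicates 1 to 3 were males and replicate 4 was a female, and wild-type replicates 1 and 2 were males and replicates 3 and 4 females. A further 5 samples came from 3xTg-AD mice on vehicle, which had the same genotype without the Polb allele. The transgenes and the Polb allele are therefore both different between the heterozygous and the wild-type mice. What promoter drives the transgenes, and how litters and cages were shared, is not given in the sources used here. Each sample was taken as 1 mouse, as its own sex label implies. The p-values measure the spread between mice within groups, pooled over all 23 samples and so also over mice outside this comparison.

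DNA polymerase beta, the product of Polb, removes the sugar remnant and fills the gap in base excision repair, the main route by which neurons mend oxidised and alkylated bases. Mutant APP raises the output of amyloid-beta, and the tau transgene adds tangle-forming tau, so that the 3xTg-AD line develops both plaques and tangles. The hippocampus forms new memories, is fuelled largely by glucose and by lactate exchanged between astrocytes and neurons, and is among the early sites of damage in Alzheimer's disease. Polb and App were not among the genes measured, so the alleles could not be checked on their own transcripts.

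Of the 748 genes with a value, 619 reached a normalized value of 20 in at least 4 samples and were tested, and 129 were not. Levels are log2 normalized counts as deposited, differences are log2 differences (heterozygous minus wild type) with their standard error (SE), and a gene passed at an adjusted p below 0.05. Inferred total counts averaged 531524 ± 51606 in heterozygous mice and 530762 ± 59088 in wild-type mice (SD, n = 4 each). Neuronal content was checked on 5 markers, among them Mapt. Their mean level lay between 10.06 and 10.17 in heterozygous mice and between 9.90 and 10.03 in wild-type mice, so the ranges did not overlap. Whether the Mapt probe also reads the human tau transgene is not given, which limits this check. These markers do not tell the hippocampus from other brain regions, so the region rests on the label. Glul was the only astrocyte marker measured and Aspa the only oligodendrocyte marker, and no ependymal marker was measured. Wild-type replicate 3 stood apart from the other wild-type mice, with a Ttr level of 12.62 against 4.95 to 7.15. Ttr encodes transthyretin, which the choroid plexus makes in bulk. Values without this mouse are given below for the lists and genes it moves most. In whole tissue, fewer cells of a type and less RNA per cell cannot be told apart.

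Sequence is shown for genes on which the results below turn: Asns, a target of the transcription factor Atf4, and Pdk1 and Ldha, targets of hypoxia-inducible factor 1. All 3 were lower in every heterozygous mouse than in any wild-type mouse. RefSeq lists 1 start for Asns and 2 each for Pdk1 and Ldha, of which the first listed is shown. The 250 bases before it (RefSeq, build GRCm38.p6) are printed 5′ to 3′ on the gene's strand, with matches in capitals. The motif searched in Asns was TGATGNAAN, the composite element read by C/EBP and Atf proteins, and in Pdk1 and Ldha it was ACGTG or GCGTG, the core read by hypoxia-inducible factors. Both strands were searched.
Asns, chr6:7693210-7693459, minus strand: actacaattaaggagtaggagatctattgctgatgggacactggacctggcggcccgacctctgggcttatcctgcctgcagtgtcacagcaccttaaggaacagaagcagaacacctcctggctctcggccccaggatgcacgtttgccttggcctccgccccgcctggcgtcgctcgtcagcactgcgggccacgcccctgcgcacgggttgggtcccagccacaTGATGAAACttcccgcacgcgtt
Pdk1, chr2:71872974-71873223, plus strand: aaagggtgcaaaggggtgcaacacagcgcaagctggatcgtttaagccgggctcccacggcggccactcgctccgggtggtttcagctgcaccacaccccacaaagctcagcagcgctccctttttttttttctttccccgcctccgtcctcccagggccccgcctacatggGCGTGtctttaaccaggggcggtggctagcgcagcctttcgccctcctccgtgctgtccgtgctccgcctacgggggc
Ldha, chr7:46845554-46845803, plus strand: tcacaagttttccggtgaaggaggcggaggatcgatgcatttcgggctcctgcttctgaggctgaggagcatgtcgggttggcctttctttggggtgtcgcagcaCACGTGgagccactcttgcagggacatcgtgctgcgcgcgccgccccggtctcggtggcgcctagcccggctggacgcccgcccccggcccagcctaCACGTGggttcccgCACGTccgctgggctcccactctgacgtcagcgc
The Asns window held 1 match, whose first base lay at -23 from the start. Of 32851 mouse promoter windows of the same length, 3.44% held this motif. It was not found in the windows of Atf4, Psat1, Psph or Phgdh. The printed Pdk1 window held 1 match, at -78, and the window of its other start held 0. In the printed Ldha window 5 matches were found, of which 4 form 2 palindromes that read the same on both strands and so count once per strand, and the window of its other start held 1 match, at -59. ACGTG or GCGTG stood in 38.6% of all windows. A match is a run of letters and not evidence of binding.

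No gene passed the test across the panel. With limma, 0 of 619 genes (0%) had an adjusted p below 0.05, and the lowest adjusted p was 0.139, for Echs1. With array weights 132 genes passed. The weights were estimated from the same values, ranged from 0.55 to 3.22 and were highest for wild-type replicates 1 and 2. With mice weighted equally and the replicate number as a block, Echs1 alone passed. The absence of calls therefore depends on these settings. At an unadjusted p below 0.05 there were 81 genes (13.1%), of which 62 (10%) were higher and 19 (3.07%) lower in heterozygous mice. The higher genes made up 76.5% of the 81. That split moved with the scaling: it was 58.8% of 68 genes after centring each mouse on its median, 53.4% of 58 after centring on Gapdh, Gusb and Hprt, and 37.3% of 67 after quantile normalization. The median difference of all tested genes was 0.095, and quantile normalization shifted it by -0.12. Of all tested genes 65.8% were above 0 and 33.3% below, and the list counts given later stand beside these shares. The 4 heterozygous and 4 wild-type values did not overlap for 47 genes (7.59%), 31 higher (5.01%) and 16 lower (2.58%). The 95% interval of a difference reached 0.36 to either side in the median gene.

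**Figure D1:**
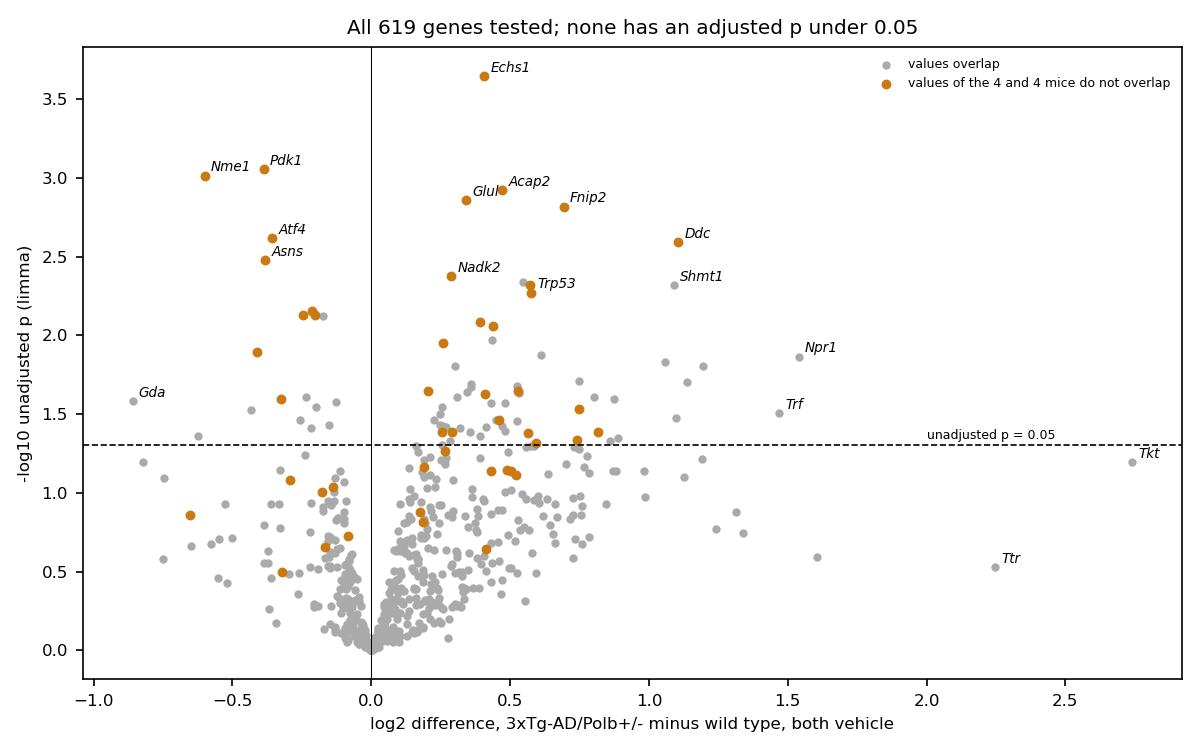
Difference and p of the 619 genes tested. Horizontal axis, log2 difference, 3xTg-AD/Polb+/- minus wild type; vertical axis, -log10 of the unadjusted limma p; orange points, the 47 genes whose values did not overlap between groups; dashed line, unadjusted p of 0.05. Echs1 stands highest, and the genes of largest difference (Tkt and Ttr) lie below the line.

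The 24 genes of smallest p, 15 higher and 9 lower, span 0.17 to 1.10 in absolute difference. For 19 of them the groups did not overlap. In males (3 heterozygous and 2 wild-type) and in females (1 and 2) the mean difference had the same sign for all 24. These signs were read from the same mice that ranked the genes, so they describe the genes and add no test. In the main fit all named genes below missed the adjusted threshold. With array weights 22 of the 24 passed it, and with the replicate number as a block Echs1 alone did.

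**Figure D2:**
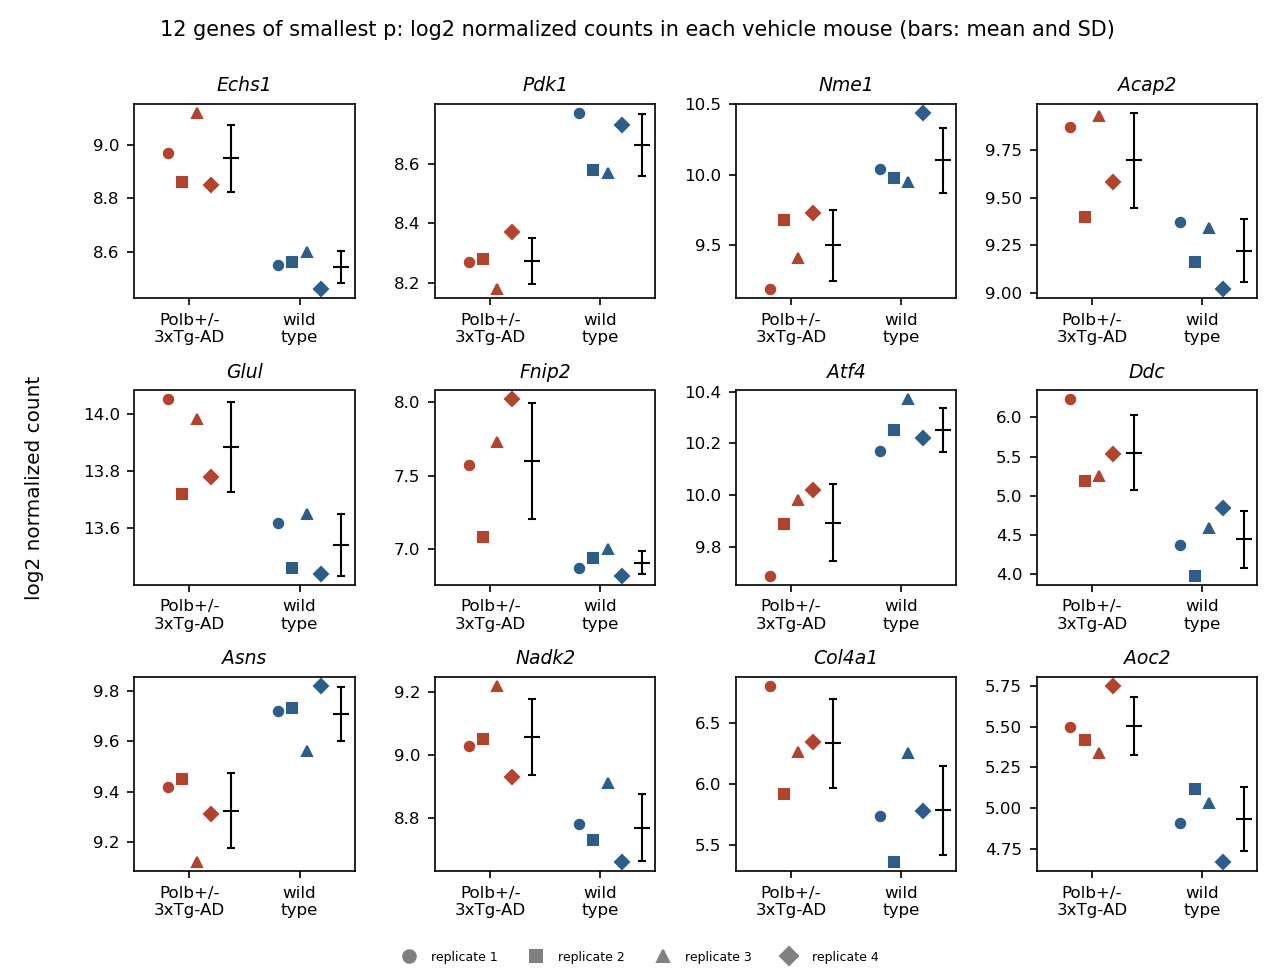
Log2 normalized count in each vehicle mouse for the 12 genes of smallest p. Left and red, 3xTg-AD/Polb+/- mice; right and blue, wild-type mice; symbol shape, replicate number; bars, mean and SD (n = 4 each). Echs1, Acap2, Glul, Fnip2, Ddc, Nadk2 and Aoc2 were higher and Pdk1, Nme1, Atf4 and Asns lower without overlap, and Col4a1 overlapped.

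Echs1, the gene of smallest p, encodes the mitochondrial enoyl-CoA hydratase of short-chain fatty acid oxidation and valine breakdown. It measured 8.97, 8.86, 9.12 and 8.85 in heterozygous mice against 8.55, 8.56, 8.60 and 8.46 in wild-type mice. Every heterozygous mouse lay above every wild-type mouse. The difference was 0.41 (SE 0.0917, adjusted p = 0.139), a 1.33-fold higher level. Its adjusted p was 0.013 with the replicate number as a block and 0.000384 with array weights, so the call depends on these settings. Of the 9 genes of the fatty acid oxidation list, 7 were above 0 and 2 below, where 65.8% of all genes were above 0 and 33.3% below, and the list's median was 0.19 (-0.09 with the Trf level as a covariate). Hadh and Ehhadh, which carry out the next step in mitochondria and peroxisomes, differed by 0.39 (SE 0.196) and 0.60 (SE 0.367), with overlapping groups. Wild-type replicate 3 had the highest wild-type level of both, 8.18 for Hadh and 6.38 for Ehhadh, and without it the differences were 0.56 and 0.91.

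Pdk1, the kinase that switches pyruvate dehydrogenase off, measured 8.27, 8.28, 8.18 and 8.37 in heterozygous mice against 8.77, 8.58, 8.57 and 8.73 in wild-type mice. The groups did not overlap, and the difference was -0.39 (SE 0.10, adjusted p = 0.157). Pdk4, a second kinase of the same enzyme that starvation and fatty acids induce, pointed the other way at 0.52 (SE 0.21, adjusted p = 0.352), with levels of 7.72, 7.19, 7.60 and 7.14 in heterozygous mice and 6.63, 6.92, 7.22 and 6.78 in wild-type mice. These values overlapped through wild-type replicate 3, which lay above heterozygous replicates 2 and 4, and without it the difference was 0.64. Idh2, the mitochondrial NADP-dependent isocitrate dehydrogenase, was 0.41 higher (SE 0.186, adjusted p = 0.352). Mpc2, a subunit of the mitochondrial pyruvate carrier, was 0.18 lower in mean level, 10.90 in heterozygous mice against 11.07 in wild-type mice, without overlap. Over the pyruvate and TCA cycle list 6 of 19 genes were above 0 and 13 below, with a median of -0.07.

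Respiratory chain genes showed small and mostly negative differences. Of 32 genes, 11 were above 0, 19 below and 2 at 0, with a median of -0.05, and 4 had an unadjusted p below 0.05, all lower, against 3.07% of all genes. The 4 members without overlap were Atp5k, Cox5a, Ndufb7 and Ndufb10, all lower in heterozygous mice, against 2.58% of all genes. Atp5k, a small subunit of ATP synthase, measured 11.59, 11.89, 11.82 and 11.81 in heterozygous mice against 11.96, 11.93, 11.95 and 12.13 in wild-type mice, a difference of -0.21 (SE 0.0719, adjusted p = 0.258). Wild-type replicate 4 held the highest value, and the nearest values of the groups were 11.89 and 11.93. Ndufb7, an accessory subunit of complex I, measured 10.42, 10.33, 10.47 and 10.51 in heterozygous mice against 10.52, 10.55, 10.72 and 10.75 in wild-type mice, a difference of -0.20 (SE 0.0683, adjusted p = 0.258). Cox5b, a subunit of cytochrome c oxidase, differed by -0.17 (SE 0.0583, adjusted p = 0.258), with 12.83 in heterozygous replicate 2 just above 12.82 in wild-type replicate 3. The median of the list stayed below 0 after median centring (-0.12), centring on Gapdh, Gusb and Hprt (-0.14) and quantile normalization (-0.09). The same scalings shifted the median of all tested genes by -0.07, -0.09 and -0.12. A downward shift keeps a list that starts below 0 below it, so the sign adds no support.

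The glycolysis list was split evenly, and its leading genes were lower. Of 25 genes 12 were above 0 and 13 below, with a median of -0.01. Ldha, the lactate dehydrogenase subunit that favours lactate formation, measured 11.25, 10.93, 11.05 and 11.30 in heterozygous mice against 11.51, 11.56, 11.41 and 11.70 in wild-type mice. No value overlapped, and the difference was -0.41 (SE 0.151, adjusted p = 0.338). Eno1, the enolase of most tissues, measured 10.92, 10.74, 10.78 and 10.96 in heterozygous mice against 11.06, 11.15, 11.08 and 11.09 in wild-type mice, again without overlap (-0.24, SE 0.0828, adjusted p = 0.258). Slc2a3, the neuronal glucose transporter, was 0.43 lower (fitted difference -0.43, SE 0.186, adjusted p = 0.352). Slc2a1, the glucose transporter of the blood-brain barrier and of glia, was 0.45 higher (SE 0.199, adjusted p = 0.352), and its level of 8.87 in heterozygous replicate 1 stood above 7.76, 7.83 and 8.19 in the other heterozygous mice and 7.61 to 7.87 in wild-type mice.

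Pdk1, Eno1, Ldha and Slc2a3 are also hypoxia targets. They were the 4 lower members of that list of 13 with an unadjusted p below 0.05, against 3.07% of all genes. In the list 2 members, among them Slc2a1 at 0.45, had such a p in the higher direction, against 10% of all genes. Of the 13 members 7 were above 0 and 6 below, and the median was 0.09. The median was -0.13 when only genes reaching a normalized value of 50 were tested, and -0.12 with the Trf level as a covariate. Hif1a, the oxygen-regulated subunit of the factor, averaged 10.33 ± 0.07 in heterozygous mice and 10.24 ± 0.05 in wild-type mice (SD, n = 4 each), a difference of 0.09 (SE 0.0713). The GCGTG and ACGTG matches printed above for Pdk1 and Ldha belong to a motif that 38.6% of promoter windows hold. The window of Slc2a1, which was higher, held 2 matches, at -61 and -36.

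Atf4 and Asns led the amino acid stress genes, both lower. Atf4, the transcription factor that cells translate under amino acid shortage and endoplasmic reticulum stress, measured 9.69, 9.89, 9.98 and 10.02 in heterozygous mice against 10.17, 10.25, 10.37 and 10.22 in wild-type mice. The groups did not overlap, and the difference was -0.36 (SE 0.104, adjusted p = 0.198). Asns, asparagine synthetase, measured 9.42, 9.45, 9.12 and 9.31 in heterozygous mice against 9.72, 9.73, 9.56 and 9.82 in wild-type mice, a difference of -0.38 (SE 0.115, adjusted p = 0.228). Psat1, a serine synthesis enzyme that Atf4 also induces, went the other way without overlap: 10.49, 10.51, 10.80 and 10.68 in heterozygous mice against 10.01, 9.92, 10.44 and 9.99 in wild-type mice (0.53, SE 0.215, adjusted p = 0.352). The list of 10 Atf4 and amino acid stress genes held 5 above 0 and 5 below, with a median of 0.02 that was -0.05 after median centring. Of Asns, Atf4, Psat1, Psph and Phgdh, the C/EBP-Atf motif was found in the window of Asns alone.

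Of 10 serine, glycine and folate-linked genes 8 were above 0, against 65.8% of all genes, and the median was 0.30. An unadjusted p below 0.05 was found for 4 of them, all higher, against 10% of all genes. Psph, the phosphatase that completes serine synthesis, was 0.31 higher (SE 0.128, adjusted p = 0.352), and Phgdh, which begins the pathway, differed by 0.16 (SE 0.189). Shmt1, the cytosolic serine hydroxymethyltransferase, measured 5.61, 5.36, 4.77 and 4.81 in heterozygous mice against 4.54, 3.91, 4.85 and 2.89 in wild-type mice. The groups overlapped, with wild-type replicate 4 far down, and the difference was 1.09 (SE 0.346, adjusted p = 0.230). Mat2a, which makes the methyl donor S-adenosylmethionine, was 0.30 higher (SE 0.114, adjusted p = 0.348). Folr1, a folate receptor of the choroid plexus on the same list, is described with the tissue markers. The median stayed above 0 after quantile normalization (0.22). In the mean level of the list the groups overlapped. Wild-type replicate 3, at 7.82, lay above heterozygous replicates 1, 2 and 4, at 7.68, 7.38 and 7.74.

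Glul, glutamine synthetase of astrocytes, which turns glutamate taken up at synapses into glutamine, measured 14.05, 13.72, 13.98 and 13.78 in heterozygous mice against 13.62, 13.46, 13.65 and 13.44 in wild-type mice. Each heterozygous value lay above each wild-type value, and the difference was 0.34 (SE 0.0923, adjusted p = 0.157). It was -0.03 after quantile normalization. Of the 16 glutamine, glutamate and GABA genes 11 were above 0, with a median of 0.07 that was just below 0 after each of the other scalings. Asl, argininosuccinate lyase, was lower without overlap, 6.60 in heterozygous mice against 6.89 in wild-type mice (-0.29, SE 0.161). Nadk2, the mitochondrial NAD kinase that supplies NADP, measured 9.03, 9.05, 9.22 and 8.93 in heterozygous mice against 8.78, 8.73, 8.91 and 8.66 in wild-type mice. These did not overlap, and the difference was 0.29 (SE 0.0896, adjusted p = 0.230).

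Nme1, a nucleoside diphosphate kinase that balances nucleotide triphosphates, was the gene of largest negative difference among the 24. It measured 9.19, 9.68, 9.41 and 9.73 in heterozygous mice against 10.04, 9.98, 9.95 and 10.44 in wild-type mice, without overlap (-0.60, SE 0.157, adjusted p = 0.157). Its close paralog Nme2 differed by 0.10 (SE 0.0627), and cross-hybridisation between the pair was not tested. Gda, guanine deaminase, had the most negative difference of all tested genes, with 10.03, 10.71, 10.14 and 10.58 in heterozygous mice against 11.33, 11.30, 10.61 and 11.66 in wild-type mice. Wild-type replicate 3 was as low as the heterozygous mice, and the difference was -0.86 (SE 0.359, adjusted p = 0.352), or -1.06 without that mouse. Xdh, which makes uric acid, was 0.80 higher (SE 0.332), and Gmpr, which returns GMP to IMP, 0.36 higher (SE 0.142), both with an adjusted p of 0.352. Of 34 purine and pyrimidine genes 20 were above 0 and 14 below, with a median of 0.07 (-0.09 after quantile normalization).

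Among DNA repair genes and targets of p53, Trp53 led. Trp53, which encodes p53, measured 6.72, 6.56, 6.93 and 7.11 in heterozygous mice against 5.99, 6.37, 6.37 and 6.29 in wild-type mice. The groups did not overlap, and the difference was 0.57 (SE 0.185, adjusted p = 0.237), a 1.49-fold higher level. Trp53 was also 0.39 above 3xTg-AD vehicle mice (unadjusted p = 0.038, adjusted p = 0.961). Of 11 repair and p53 genes tested 9 were above 0, 1 below and 1 at 0, with a median of 0.18 that was -0.04 after quantile normalization. Trp53 was the only member of the 11 with an unadjusted p below 0.05 or without overlap. Of all genes 10% were higher at that p and 5.01% were higher without overlap. Eme1, part of a nuclease that resolves joined DNA strands in recombination, had one of the 6 most negative differences (-0.65, SE 0.51, adjusted p = 0.548), at levels of 2.67 to 4.87 in heterozygous mice and 3.47 to 4.47 in wild-type mice and so at low counts. Dtl, which marks replication factors for breakdown, differed by -0.75 (SE 0.654, adjusted p = 0.578), with 7.98 in wild-type replicate 4 and 5.23 in wild-type replicate 3. Of 4 cell cycle genes tested 3 were above 0. Among them Ccna2, cyclin A2, lay between 4.58 and 4.87 in heterozygous mice and between 4.03 and 4.53 in wild-type mice (0.43, SE 0.228, adjusted p = 0.401).

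Among enzymes of monoamine and tryptophan metabolism Ddc had the smallest p. Ddc, aromatic amino acid decarboxylase, which makes dopamine and serotonin, measured 6.23, 5.19, 5.25 and 5.53 in heterozygous mice against 4.37, 3.98, 4.59 and 4.84 in wild-type mice. No value overlapped, and the difference was 1.10 (SE 0.323, adjusted p = 0.198), a 2.15-fold higher level. Aoc2, a copper amine oxidase, measured 5.50, 5.42, 5.34 and 5.75 in heterozygous mice against 4.91, 5.12, 5.03 and 4.67 in wild-type mice, also without overlap (0.57, SE 0.181, adjusted p = 0.230). Tdo2, which opens the ring of tryptophan, was 1.14 higher (SE 0.451, adjusted p = 0.352), but heterozygous replicate 4, at 4.75, lay among the wild-type values of 4.33 to 5.64. The list of 8 had 7 genes above 0 and a median of 0.34 (0.06 after quantile normalization). When only genes reaching a normalized value of 50 were tested, Aoc2 dropped out and the list's median was 1.105.

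**Figure D3:**
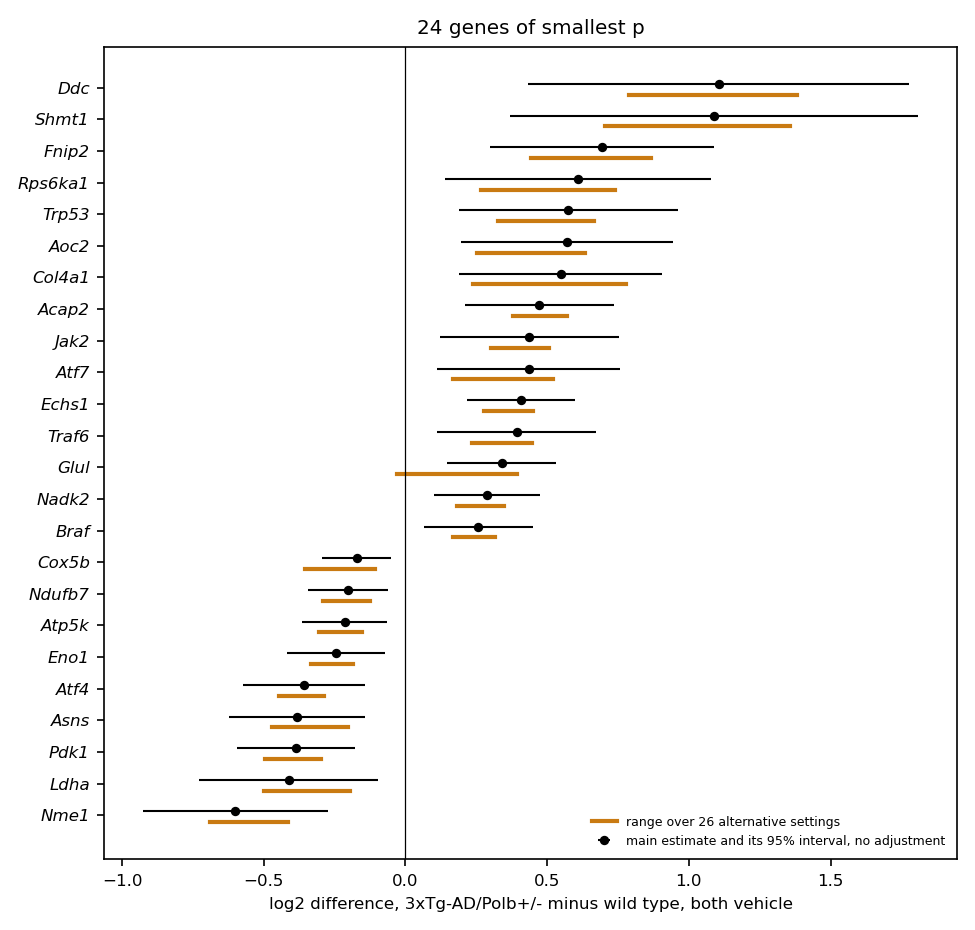
The 24 genes of smallest p with the range of their difference over 26 alternative settings. Black points and lines, log2 difference, 3xTg-AD/Polb+/- minus wild type, and its unadjusted 95% interval; orange bars, lowest to highest value over the settings. The bar of Glul reaches -0.03 and crosses 0, and the bars of the other 23 genes stay on 1 side.

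Nutrient and growth signalling genes were near the panel's median as lists, with a few members apart. Fnip2, a folliculin partner in the sensing of amino acids at the lysosome, measured 7.57, 7.08, 7.73 and 8.02 in heterozygous mice against 6.87, 6.94, 7.00 and 6.82 in wild-type mice. The wild-type mice were tightly grouped below all heterozygous mice, and the difference was 0.69 (SE 0.19, adjusted p = 0.157). Rps6ka1, a ribosomal S6 kinase downstream of ERK, was 0.61 higher (SE 0.226, adjusted p = 0.338), with 5.12 shared by heterozygous replicate 2 and wild-type replicate 2. Prkaa1, a catalytic subunit of AMP-activated kinase, measured 8.75 to 8.95 in heterozygous mice and 8.54 to 8.72 in wild-type mice (0.19, SE 0.0989, adjusted p = 0.401). Of 22 mTOR, AMPK and folliculin genes 12 were above 0, with a median of 0.01 that was -0.06 after median centring. Braf, a kinase of the MAPK cascade, measured 9.87, 9.53, 9.86 and 9.56 in heterozygous mice against 9.47, 9.50, 9.44 and 9.38 in wild-type mice and did not overlap (0.26, SE 0.0927, adjusted p = 0.316). Pik3r1, a regulatory subunit of PI3-kinase, measured 9.54 to 9.63 in heterozygous mice and 9.22 to 9.35 in wild-type mice (0.29, SE 0.134, adjusted p = 0.352). Of the 25 genes of the PI3K-AKT and MAPK list 17 were above 0, with a median of 0.05 that was just below 0 after each other scaling. Acap2, which regulates the small GTPase Arf6 in membrane traffic, measured 9.87, 9.40, 9.93 and 9.58 in heterozygous mice against 9.37, 9.16, 9.34 and 9.02 in wild-type mice (0.47, SE 0.126, adjusted p = 0.157). Atf7, a transcription factor that binds cAMP response elements, was 0.43 higher with overlap (SE 0.155, adjusted p = 0.314).

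Innate immune signalling genes were nearly all above 0. Of the 22 genes of the cytokine and innate signalling list 21 were above 0, against 65.8% of all genes. An unadjusted p below 0.05 was found for 4, all higher, against 10% of all genes. The median was 0.43, and it was 0.18 after quantile normalization. Traf6, an adaptor of Toll-like and interleukin-1 receptors, measured 7.96, 7.68, 7.80 and 7.91 in heterozygous mice against 7.48, 7.42, 7.58 and 7.30 in wild-type mice. The groups did not overlap (0.39, SE 0.134, adjusted p = 0.267). Jak2, a kinase of cytokine receptors, measured 8.78, 8.59, 8.63 and 8.84 in heterozygous mice against 8.26, 8.12, 8.23 and 8.48 in wild-type mice, likewise without overlap (0.44, SE 0.151, adjusted p = 0.272). Nfkb1, a subunit of NF-kappaB, was the third member without overlap, at 6.71 to 7.36 in heterozygous mice and 6.42 to 6.66 in wild-type mice (0.46, SE 0.203, adjusted p = 0.352). Of all genes 5.01% were higher without overlap. Stat6, which acts downstream of interleukin-4, was 0.75 higher (SE 0.296, adjusted p = 0.352), and wild-type replicate 3, at 6.80, lay above heterozygous replicate 2, at 6.30. Without wild-type replicate 3 the difference in Stat6 was 0.95.

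Genes of the microglial and lysosomal lists were mostly higher in the mean and differed widely among mice. All 10 tested genes of the list of disease-associated microglia, a state described around plaques in mouse models, were above 0 with a median of 0.58. Of these genes 1 had an unadjusted p below 0.05, where 10% of all genes were higher at that p. The mean level of these genes was 8.20, 8.40, 9.01 and 9.71 in heterozygous mice against 7.82, 7.96, 8.93 and 8.13 in wild-type mice. Wild-type replicate 3 was above heterozygous replicates 1 and 2, so the groups overlapped. Ctsl, a lysosomal protease, measured 8.01, 8.23, 8.27 and 8.34 in heterozygous mice against 7.59, 7.66, 8.32 and 7.56 in wild-type mice (0.43, SE 0.181, adjusted p = 0.352), and the difference was 0.61 without wild-type replicate 3. Tlr2, a receptor for microbial and aggregated ligands, measured 4.67, 5.26, 5.84 and 6.83 in heterozygous mice against 3.59, 4.30, 5.53 and 4.67 in wild-type mice (1.13, SE 0.611, adjusted p = 0.409). Ctsz and Apoe, both raised in microglia near plaques, differed by 0.78 (SE 0.419, adjusted p = 0.404) and 0.48 (SE 0.279, adjusted p = 0.451). Apoe measured 13.08, 12.89, 13.43 and 13.93 in heterozygous mice against 12.74, 12.74, 13.15 and 12.77 in wild-type mice, and heterozygous replicate 4, the female, was the highest of the 8.

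The 9 measured markers of microglia and macrophages were also all above 0, with a median of 0.66 and none with an unadjusted p below 0.05. Their summed normalized count ranged over 3006 to 11726 in heterozygous mice and over 3338 to 5560 in wild-type mice, and none of the 9 was listed at 0. Slc2a5, the fructose transporter of microglia, is not on this marker list and went the other way (-0.745, limma adjusted p = 0.410). Cd68, a lysosomal protein of phagocytes, measured 7.29, 8.04, 8.29 and 9.37 in heterozygous mice against 7.50, 7.28, 7.94 and 7.62 in wild-type mice. Heterozygous replicate 1 was among the lowest of all 8 mice, and replicate 4 the highest. Of 16 lysosome and cathepsin genes 13 were above 0, with a median of 0.36. Heterozygous replicate 4 had the highest mean level of the 8 mice in the disease-associated (9.71), microglial (8.12), lysosome (9.22) and cytokine (6.54) lists. Among wild-type mice replicate 3 was highest in each, so leaving it out lowers the wild-type mean. Likewise, leaving out heterozygous replicate 4 lowers the heterozygous mean. The other heterozygous mice reached at most 9.012, 7.398, 8.783 and 6.055 in these lists, in that order. Wild-type replicate 3 stood at 8.934, 7.093, 8.749 and 5.927, above heterozygous replicates 1 and 2 in each. Medians of these lists with a mouse left out are given below for wild-type replicate 3 only, whose removal raises them. Without heterozygous replicate 4, 43 genes of the panel were higher at an unadjusted limma p below 0.05, against 62 with all mice. This drop is not particular to that mouse. Leaving out each mouse in turn gave 30 (without wild-type replicate 4) to 92 (without wild-type replicate 3), with 31 without heterozygous replicate 3. Without wild-type replicate 3 the medians were 0.79 for the disease-associated list, 0.78 for the microglial markers, 0.53 for the lysosome and 0.49 for the cytokine list. With the level of Trf as a covariate they were -0.04, -0.04, -0.05 and -0.10 in that order, so the sign of these lists depends on whether that covariate is in the model. Trf was itself 1.47 higher in heterozygous mice, so the covariate also takes out part of the difference between the groups. Antigen presentation genes had no shared direction, with 5 of 11 above 0 and a median of -0.01 (0.27 without wild-type replicate 3). Of 7 tested T, NK and B cell markers 4 were above 0, and their summed normalized count was 95 to 187 in heterozygous mice and 100 to 126 in wild-type mice.

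Markers of the choroid plexus had the highest median of the lists described and differed widely among mice within each group. Ttr measured 10.89, 5.69, 12.19 and 10.41 in heterozygous mice against 4.95, 7.15, 12.62 and 5.47 in wild-type mice. In each group both high and low mice occurred, and the difference of 2.25 (SE 2.09, adjusted p = 0.613) was close to its own error. Without wild-type replicate 3 it was 3.94 (adjusted p = 0.302). The 4 choroid plexus markers were all above 0 with a median of 1.29, and 2.08 without wild-type replicate 3. Their summed normalized count was 125 to 5188 in heterozygous mice and 89 to 6954 in wild-type mice, and none was listed at 0. Folr1 followed the same mice, with 7.74, 4.23, 8.46 and 6.87 in heterozygous mice against 3.69, 4.47, 8.83 and 3.89 in wild-type mice (1.60, SE 1.38, adjusted p = 0.576), and the difference was 2.81 without wild-type replicate 3. With the Ttr level as a covariate the lowest adjusted p over all genes was 0.247, for Echs1.

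**Figure D4:**
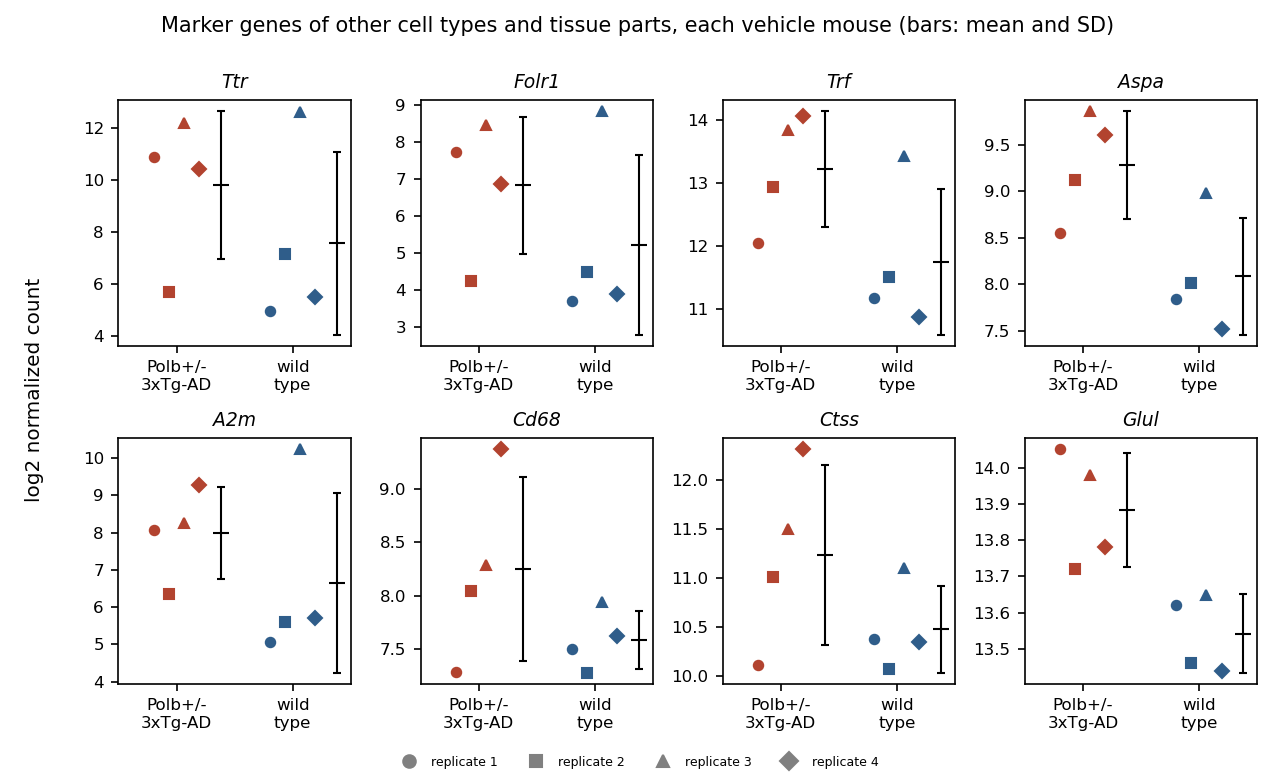
Log2 normalized count in each vehicle mouse for markers of the choroid plexus (Ttr, Folr1), oligodendrocytes (Aspa), microglia and macrophages (Cd68, Ctss) and astrocytes (Glul), with Trf and A2m. Left and red, 3xTg-AD/Polb+/- mice; right and blue, wild-type mice; symbol shape, replicate number; bars, mean and SD (n = 4 each). Wild-type replicate 3 (triangle) is the highest wild-type mouse in every panel, and Glul alone has no overlap.

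Trf, transferrin, the iron carrier made by oligodendrocytes and choroid plexus, measured 12.05, 12.94, 13.83 and 14.05 in heterozygous mice against 11.18, 11.51, 13.43 and 10.87 in wild-type mice. Apart from wild-type replicate 3, every wild-type mouse lay below every heterozygous mouse, and the difference was 1.47 (SE 0.637, adjusted p = 0.352), or 2.03 without that mouse (adjusted p = 0.156). Aspa, the oligodendrocyte enzyme that splits N-acetylaspartate for myelin lipid synthesis, measured 8.55, 9.12, 9.86 and 9.60 in heterozygous mice against 7.84, 8.01, 8.98 and 7.52 in wild-type mice, with the same exception (1.19, SE 0.454, adjusted p = 0.348, and 1.49 without it). Naalad2 and Folh1, peptidases that release N-acetylaspartate from NAAG, differed by 0.73 (SE 0.353) and 0.41 (SE 0.246). Of the 7 genes of N-acetylaspartate and NAAG metabolism 6 were above 0, with a median of 0.41 (0.13 after quantile normalization). Nat8l, the neuronal enzyme that makes N-acetylaspartate, differed by 0.23 (SE 0.17, adjusted p = 0.516). A2m, a protease trap of plasma and glia, was 1.34 higher (SE 0.965, adjusted p = 0.512), and it was 2.53 without wild-type replicate 3 and -0.52 with Trf as a covariate. Npr1, the natriuretic peptide receptor, measured 5.77, 4.42, 5.03 and 5.17 in heterozygous mice against 3.69, 2.47, 5.67 and 2.40 in wild-type mice (1.54, SE 0.572, adjusted p = 0.338). Without wild-type replicate 3 the difference was 2.24 with an adjusted p of 0.0824, the lowest of any gene in that fit. Col4a1, a collagen chain of vessel basement membranes, measured 6.80, 5.92, 6.26 and 6.34 in heterozygous mice against 5.74, 5.36, 6.25 and 5.78 in wild-type mice (0.55, SE 0.173, adjusted p = 0.230). Of 6 endothelial and mural markers 5 were above 0 with a median of 0.34, and their summed normalized count was 526 to 1003 in heterozygous mice, highest in replicate 1, and 490 to 611 in wild-type mice.

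**Figure D5:**
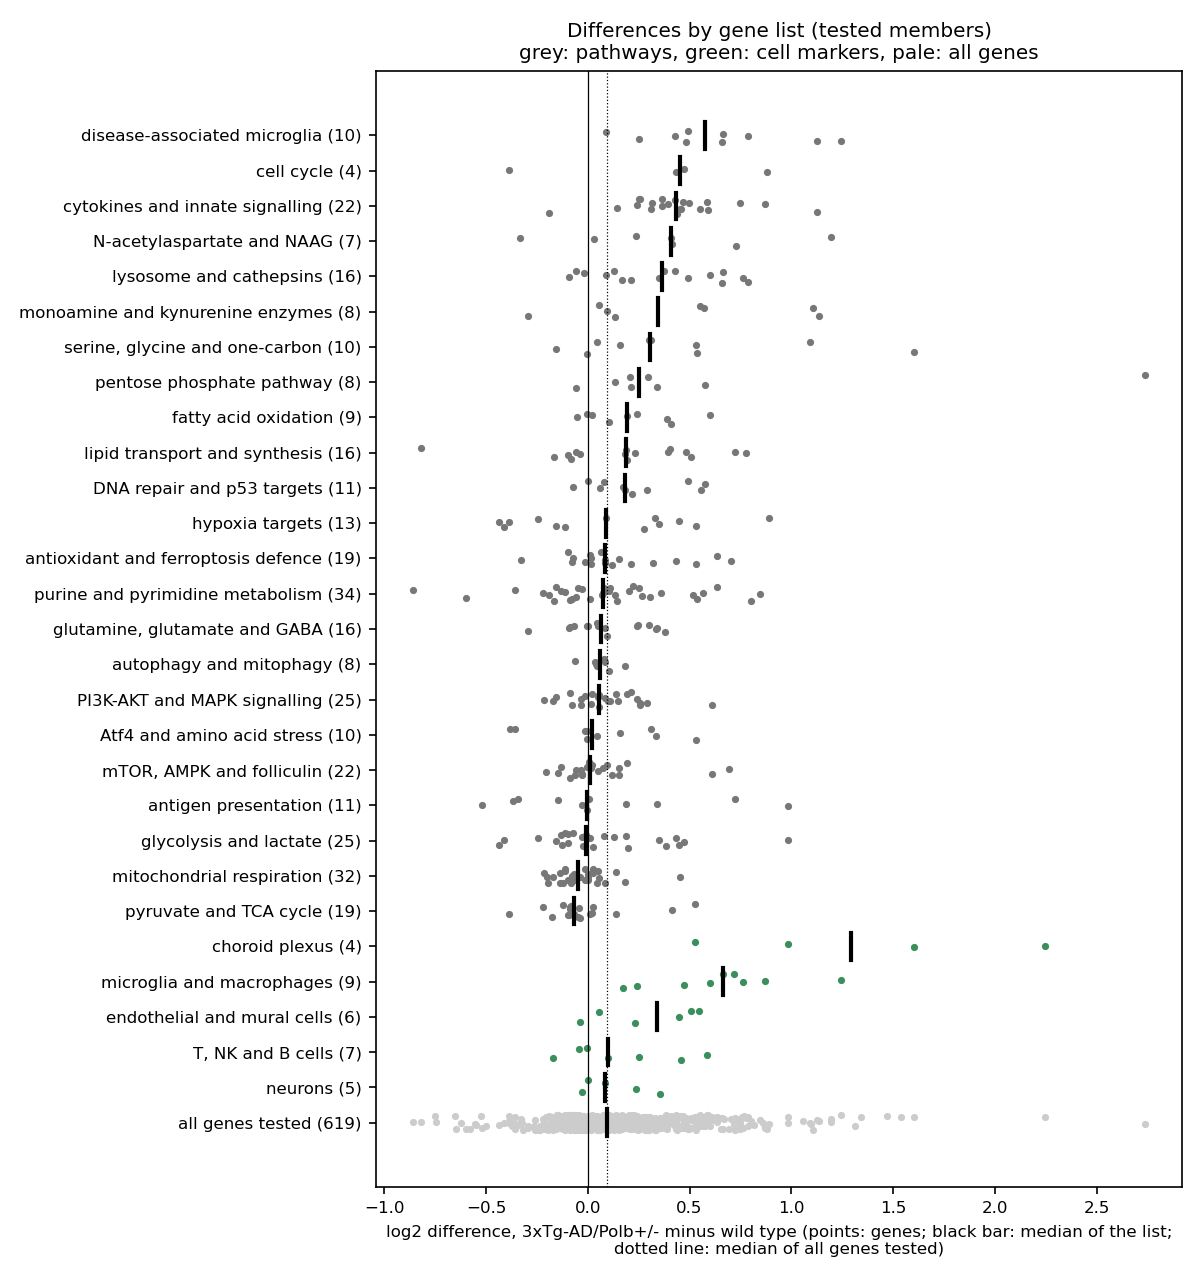
Differences of the tested members of each list with 3 or more of them. Horizontal axis, log2 difference, 3xTg-AD/Polb+/- minus wild type; points, genes; black bars, median of the list; number in brackets, genes tested; dotted line, the median of all 619 genes, 0.095. Choroid plexus, microglial and disease-associated microglial lists have the highest medians, and the respiration and TCA cycle lists lie lowest.

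Lipid, redox and sugar genes added a few separations at smaller size. In the lipid list 10 of 16 genes were above 0, with a median of 0.19 (0.06 after quantile normalization) and none with an unadjusted p below 0.05. Scd1, the desaturase that makes oleic acid, measured 9.96 to 10.42 in heterozygous mice and 9.42 to 9.93 in wild-type mice (0.50, SE 0.267, adjusted p = 0.401). Acaca, which commits acetyl-CoA to fatty acid synthesis, also did not overlap (0.18, SE 0.125, adjusted p = 0.477). Cd36, a fatty acid and scavenger receptor, was among the 6 most negative differences (-0.82, SE 0.421, adjusted p = 0.396), as were Slc2a5, the fructose transporter of microglia (-0.74, SE 0.406, adjusted p = 0.410), and Rbp4. Rbp4, which carries retinol, measured 6.94, 6.39, 6.63 and 6.53 in heterozygous mice against 7.36, 7.28, 7.30 and 7.16 in wild-type mice, without overlap (-0.65, SE 0.424, adjusted p = 0.468). Its adjusted p was 0.138 when limma was fitted to only the 2 groups compared. Of 19 antioxidant and ferroptosis genes 14 were above 0, with a median of 0.08 that was just below 0 after centring on Gapdh, Gusb and Hprt, and Tfrc, the transferrin receptor, was the only one with an unadjusted p below 0.05 (0.32, SE 0.145, adjusted p = 0.352). The autophagy list held 7 of 8 genes above 0 with a median of 0.06, which was below 0 after each other scaling. In the pentose phosphate list 7 of 8 genes were above 0 with a median of 0.25 (0.07 after quantile normalization), and Pgd, which makes NADPH there, measured 8.10 to 8.32 in heterozygous mice and 7.92 to 8.07 in wild-type mice (0.20, SE 0.0832, adjusted p = 0.352). Tkt, transketolase of the same pathway, had the largest difference of all, 2.74 (SE 1.40, adjusted p = 0.396). It was listed at 0 in wild-type replicate 1, against 10.38 to 10.56 in the other wild-type mice and 10.43 to 10.71 in heterozygous mice, so the difference rests on that single entry.

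Mapt, the mouse tau gene, measured 9.59, 10.11, 10.34 and 10.58 in heterozygous mice against 9.74, 9.85, 9.76 and 9.85 in wild-type mice. Of the heterozygous mice 3 lay above all wild-type mice and replicate 1 below them, and the difference was 0.35 (SE 0.163, adjusted p = 0.352). Both kinds of transgenic mice carry a human tau transgene, and no source used here says whether the panel's Mapt probe also reads it.

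The 3xTg-AD vehicle mice without the Polb allele were used to ask whether a difference from wild type was particular to the heterozygous mice. The test of heterozygous against 3xTg-AD vehicle mice gave 0 of 619 genes (0%) with an adjusted p below 0.05 and 26 (4.2%) with an unadjusted one, 17 higher (2.75%) and 9 lower (1.45%). For the 24 genes of smallest p, the difference between these genotypes lay between -0.25 and 0.62, and the smallest adjusted p was 0.961. Echs1 (0.20, unadjusted p = 0.033) and Trp53 were the only ones of the 24 below 0.05 before adjustment. With array weights Echs1 passed that test, 0.30 above 3xTg-AD mice (adjusted p = 0.0439), and it was the only named gene to do so in any setting tried. No difference from wild type is called particular to the heterozygous mice, since none passed with mice weighted equally. The comparison of 3xTg-AD with wild-type mice uses the same wild-type samples, so its values are given only side by side. At an unadjusted p below 0.05 it gave 57 genes (9.21%), 34 higher (5.49%) and 23 lower (3.72%) in 3xTg-AD mice. It gave 1 gene (0.162%) past the adjusted threshold, Pdk1, at -0.54 (adjusted p = 0.0077) beside -0.39 in the heterozygous comparison. Pdk1 averaged 8.28 in heterozygous mice, 8.12 in 3xTg-AD mice and 8.66 in wild-type mice. Against the same wild-type mice Asns differed by -0.38 in heterozygous and -0.44 in 3xTg-AD mice, Atf4 by -0.36 and -0.31, Jak2 by 0.44 and 0.42, and Mapt by 0.35 and 0.61. The pairs for Echs1 were 0.41 and 0.21, for Ddc 1.10 and 0.49, and for Trp53 0.57 and 0.19. Of these, Echs1 alone passed its own test against 3xTg-AD mice, and only with array weights.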

How the data were processed

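RNA from the hippocampus was measured on an nCounter metabolic panel, and the authors deposited log2 normalized counts, made with the nCounter Advanced Analysis tools per the series' design text. How background was corrected, which genes set the scale and which version was run are not given in the sources used here. In all, the table held 768 rows, 20 without a value and 748 with values in all 23 samples, and RefSeq matched 747 symbols. Depth was inferred from low values, of which at least 99.21% in each of the 8 mice were whole multiples of 1 count (tolerance 0.0125 log2, counts up to 12). Totals ranged over 462066 to 586867 in heterozygous and 461005 to 602177 in wild-type mice, and a normalized value of 20 stood for 17.9 to 22.7 and 19.0 to 25.4 inferred counts.

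Genes reaching a normalized value of 20 in at least 4 samples were tested on all 23 samples with 1 mean per group, using lmFit, then contrasts.fit, then eBayes with a trend (limma 3.58.1, R 4.3.3). Tests were two-sided with Benjamini-Hochberg adjustment over 619 genes at 0.05. Named were the 24 genes of smallest p, the 6 largest differences in each direction, the 3 smallest p of each list and fixed genes such as Mapt and Apoe. Others, such as Nme2, Hif1a, Phgdh, Psph, Cd68 and list members singled out for their lack of overlap, were chosen after their values were seen. Some genes covered by that rule are not reported here. The members and the 24 pathway and 9 marker lists were chosen with earlier results of these data known. Alternatives covered scaling, filters, covariates, samples, weights and the replicate number as a block. The workflow was tested on simulated data. Tables and plots used Python 3.11.15, NumPy 2.4.6, pandas 2.3.3 and matplotlib 3.10.9.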

Additional observations from a re-analysis of the deposited data

Results flagged for a closer look

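In groups of 4 mice, a highest or lowest value was singled out when its gap to the nearest other mouse as a share of the group's range exceeded Dixon's 95% critical value. Of 172 groups (the named genes in each genotype) 14 were singled out, and chance alone marks about 5% of groups. In 8 of them wild-type replicate 3 was the highest wild-type mouse: A2m at 10.23 (others 5.07 to 5.70), Folr1 at 8.83 (3.69 to 4.47), Ctsl at 8.32 (7.56 to 7.66), Ctsz at 9.55 (8.19 to 8.41), Stat6 at 6.80 (5.96 to 6.05), Nfe2l2 at 6.11 (4.98 to 5.08), Naalad2 at 5.70 (4.78 to 4.83) and Apoe at 13.15 (12.74 to 12.77). The same mouse was lowest for the insulin receptor gene Insr, at 6.66 against 6.74 to 6.75. These genes share 1 mouse and are not independent of each other. Wild-type replicate 1 was listed at 0 for Tkt, against 10.38 to 10.56. Wild-type replicate 4 was highest for Atp5k, at 12.13 against 11.93 to 11.96. Among heterozygous mice, replicate 1 was highest for Tfrc, at 10.72 against 10.04 to 10.12, replicate 2 lowest for the kinase gene Tbk1, at 8.12 against 8.33 to 8.37, and replicate 3 lowest for the T cell kinase gene Zap70, at 4.63 against 5.12 to 5.15.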

How the results depend on the processing

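The count of genes with an adjusted p below 0.05 was 0 in every setting tried except 2: it was 1 (Echs1, adjusted p = 0.013) with the replicate number as a block, and 132 (112 higher and 20 lower, 22 of the 24 genes of smallest p among them) with array weights, which gave wild-type replicates 1 and 2 weights of 2.94 and 3.22 against 0.57 and 0.71 for replicates 3 and 4. Array weights also gave 1 named gene, Echs1, past the threshold between heterozygous and 3xTg-AD vehicle mice, against 0. Same-numbered mice had correlations of 0.087, 0.253, 0.488 and 0.124 in their deviations from the group means, 3 of 4 above 0.1, and 3 of 8 mice correlated best with their own number, so the block rests on a shared number only. The count at an unadjusted p below 0.05, 81, was 51 in males only, 216 with array weights, 47 with Trf as a covariate and 109 with the replicate block. It was 93 when only the 2 groups compared were fitted, so that other groups added nothing to the spread. Leaving out each mouse in turn gave 40 (without wild-type replicate 4) to 114 (without wild-type replicate 3), with 49 without heterozygous replicate 3 or wild-type replicate 2, and always 0 adjusted calls and 0 calls against 3xTg-AD mice. The count without overlap, 47, was 54 to 142 when a mouse was left out, 142 without wild-type replicate 3 and 87, 96 and 74 without heterozygous replicates 1, 2 and 4; fewer mice overlap less by construction. Differences turned sign for Glul (-0.0301), Tbk1 (-0.0132) and Pik3r4 (-0.0448) after quantile normalization, for Pik3r4 (-0.0067) in males only, for Pik3r4 and Grin1 (both -0.00583) after centring on Gapdh, Gusb and Hprt, and, with Trf as a covariate, for Dtl (0.0823), A2m (-0.52), Ttr (-0.35), Hadh (-0.0148), Ehhadh (-0.00419), Ctsz (-0.043), Nfe2l2 (-0.0376), Ctss (-0.0614) and Cd3d (-0.25); the cause was not tested. The planned centring on the panel's reference genes was not run, since none of their rows holds a value. The covariates Ttr and Trf, centring on Gapdh, Gusb and Hprt, and leaving out Tkt or the treated heterozygous mice of low total were added after seeing the data. Ttr and Trf were themselves higher in the mean of the heterozygous mice, so as covariates they also take out part of the group difference. Low genes such as Eme1 and Aoc2, and the low wild-type values of Npr1, Shmt1, Tlr2, Folr1 and Ddc, rest on few counts.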
